A study of Homo sapiens with 26 samples.

Results

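Aminoacyl-tRNA synthetases are the enzymes that join each amino acid to its transfer RNAs, so that the ribosome reads a codon as the right residue. Human cells hold 1 set for the cytosol and another for the mitochondrion, both encoded in the nucleus, and by convention the gene of a mitochondrial enzyme ends in ARS2. Cytosolic synthetase genes are known targets of ATF4, the transcription factor that rises when amino acids run short or unfolded proteins collect in the endoplasmic reticulum. The genes described here are the 36 synthetase genes listed by symbol, 20 cytosolic and 16 mitochondrial, out of 33562 gene rows in the table, and the rule that chose them used their symbols and not their measured values. The question asked of them is whether the cytosolic and the mitochondrial enzymes moved alike across 9 cell lines that differ in the kinase Aurora-A.

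All 9 lines derive from MDA-MB-231Luc, a human triple-negative breast cancer line, and the study varied where Aurora-A, encoded by AURKA, is sent in the cell. NLS-AURKA (clones c2 and c3) carries AURKA cDNA with a nuclear localization signal, the cDNA label MUT1 and the guide sgAURKA1. NES-AURKA (clones c1 and c2) carries it with a nuclear export signal, and WT-AURKA (clones c1 and c2) with no added signal, and these 4 clones share the label MUT2 and the guide sgAURKA2. The control lines NLS-Empty, NES-Empty and Empty hold the empty pLUTZ mRFP vector with the matching signal or none, and the guide sgCon. AURKA clones were at passages 32 to 35 and control lines at passages 19 to 20, and all cells, controls included, grew in serum medium with doxycycline, which drives the cDNA from an rtTA-responsive promoter. Every AURKA line is a clone, and clonality, guide and passage cannot be told apart from AURKA cDNA in the comparison with control lines. Guide and cDNA label cannot be told apart from the nuclear signal when NLS-AURKA is set against the other constructs. WT-AURKA c2 has 2 libraries and each other line has 3, which makes 17 AURKA libraries and 9 control libraries.

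The titles letter the libraries, and 8 of them, 1 for each line but WT-AURKA c2, are lettered A to H and the other 18 are lettered I to Z. These letter sets differed in RNA composition, with the nuclear RNA MALAT1 at 175 to 561 RPKM in libraries A to H and at 6.11 to 33.5 RPKM in libraries I to Z, so they were treated as possible batches. An estimated 11.7 to 19.5 M reads stood behind a library. VIM, the mesenchymal filament vimentin, was at 234 to 1059 RPKM, while ESR1 and PGR reached at most 0.022 and 0.012 RPKM (the estrogen and progesterone receptors), and ERBB2 lay between 2.25 and 5.06 RPKM. CDH1, the epithelial junction protein E-cadherin, ran between 0.000 and 15.5 RPKM. The 5 luminal epithelial markers summed to 96.9 to 328 RPKM in AURKA libraries and 165 to 279 RPKM in control libraries, most of it the keratin genes KRT18 (65.3 to 222 RPKM) and KRT8 (28.1 to 104 RPKM), with EPCAM at up to 15.3 RPKM. Leukocyte, endothelial and fibroblast markers were low: the 5 leukocyte markers summed to 0.098 to 1.14 RPKM in AURKA libraries and 0.292 to 0.71 RPKM in control libraries, the 4 endothelial markers to 0.143 to 1.27 and 0.064 to 0.181 RPKM, and the 4 fibroblast markers to 0.000 to 0.498 and 0.169 to 1.34 RPKM. The part of these markers in the results was not tested. AURKA itself averaged 37.6 ± 19.1 RPKM in AURKA lines (SD, n = 6) and 57.0 ± 6.29 RPKM in control lines (SD, n = 3). Its 1 row sums RNA of the gene and of the cDNA, so neither level checks a label. Libraries D (WT-AURKA c1), W (NLS-AURKA c2) and A (NES-AURKA c2) stood apart from the rest in ATF4 target genes. Comparisons between groups of lines are also given without them, and those of single clones are not. Libraries D, W and A also held the most AURKA RNA of their own lines. Library D had 84.1 RPKM, against 14.1 and 12.8 RPKM in the other WT-AURKA c1 libraries. Library W had 104.6 RPKM, against 56.5 and 38.4 RPKM in the others of NLS-AURKA c2, and library A had 36.7 RPKM, against 15.5 and 21.5 RPKM in the others of NES-AURKA c2. Library B of NLS-AURKA c3 had 76.5 RPKM, against 38.8 and 40.3 RPKM in the others of its line, which are lettered I to Z. Its ATF4 genes had a median log2 deviation of 0.036 from the median of its letter set. The part of AURKA RNA in the ATF4 target levels was not tested.

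Transcription start regions of 30 of the 36 genes, 16 cytosolic and 14 mitochondrial, were found in a RefSeq table (GRCh38.p14) under their present symbols, such as AARS1 for AARS. The 250 bases before each start were searched on both strands for TGATGNAA, reverse complement TTNCATCA, the core of the amino acid response element to which ATF4 binds in stress genes. It occurred in 4 of the 30 genes, in 3 of 16 cytosolic ones (AARS, GARS and IARS) and in 1 of 14 mitochondrial ones (YARS2). Some genes have more than 1 start region: counted by region, 4 of 39 (10.3%) of the synthetases' held it, against 1104 of all 35116 (3.14%) in the table. Below are the matches of AARS and YARS2, which lie in windows free of annotated exons, at chr16:70289661-70289718 and chr12:32756062-32756119, both on the minus strand of GRCh38.p14 and upstream of the gene. The sequences run 5′ to 3′ along the gene's strand, with the matching 8 bases in capitals, which begin 187 bases before the start of AARS and 197 bases before that of YARS2.
AARS: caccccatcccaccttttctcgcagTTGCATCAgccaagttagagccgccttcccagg
YARS2: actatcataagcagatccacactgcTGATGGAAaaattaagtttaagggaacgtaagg
A match describes letters and not binding, and binding was not measured here.

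Cytosolic synthetase RNAs were the more abundant of the sets. RPKM values are scaled by transcript length, so levels of different genes can be set side by side. Averaged over the 9 lines, cytosolic genes lay between 9.38 RPKM for HARS (histidine) and 120.3 RPKM for SARS (serine), with a median of 43.5 RPKM. Mitochondrial genes lay between 2.40 RPKM for AARS2 (alanine) and 40.2 RPKM for IARS2 (isoleucine), with a median of 5.06 RPKM. All 36 genes were at 1 RPKM or above in all 26 libraries, so all passed the filter on low values. In 15 pairs of a cytosolic and a mitochondrial gene of the same amino acid, the cytosolic gene was higher every time. EPRS, which charges glutamate and proline, was paired with EARS2 (glutamate) and not with PARS2 (proline). The ratio of the cytosolic to the mitochondrial level ran between 1.95 for HARS over HARS2 and 26.9 for SARS over SARS2. IARS2 stood between the cytosolic YARS (tyrosine), at 43.1 RPKM, and KARS (lysine), at 38.1 RPKM, while the next mitochondrial genes, YARS2 and RARS2 (arginine), averaged 11.8 and 10.1 RPKM. Over the 9 line means the highest was 1.36 (QARS, glutamine) to 2.56 (NARS, asparagine) times the lowest among cytosolic genes. Among mitochondrial genes it was 1.27 (PARS2, proline) to 2.89 (CARS2, cysteine) times the lowest.

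**Figure D1:**
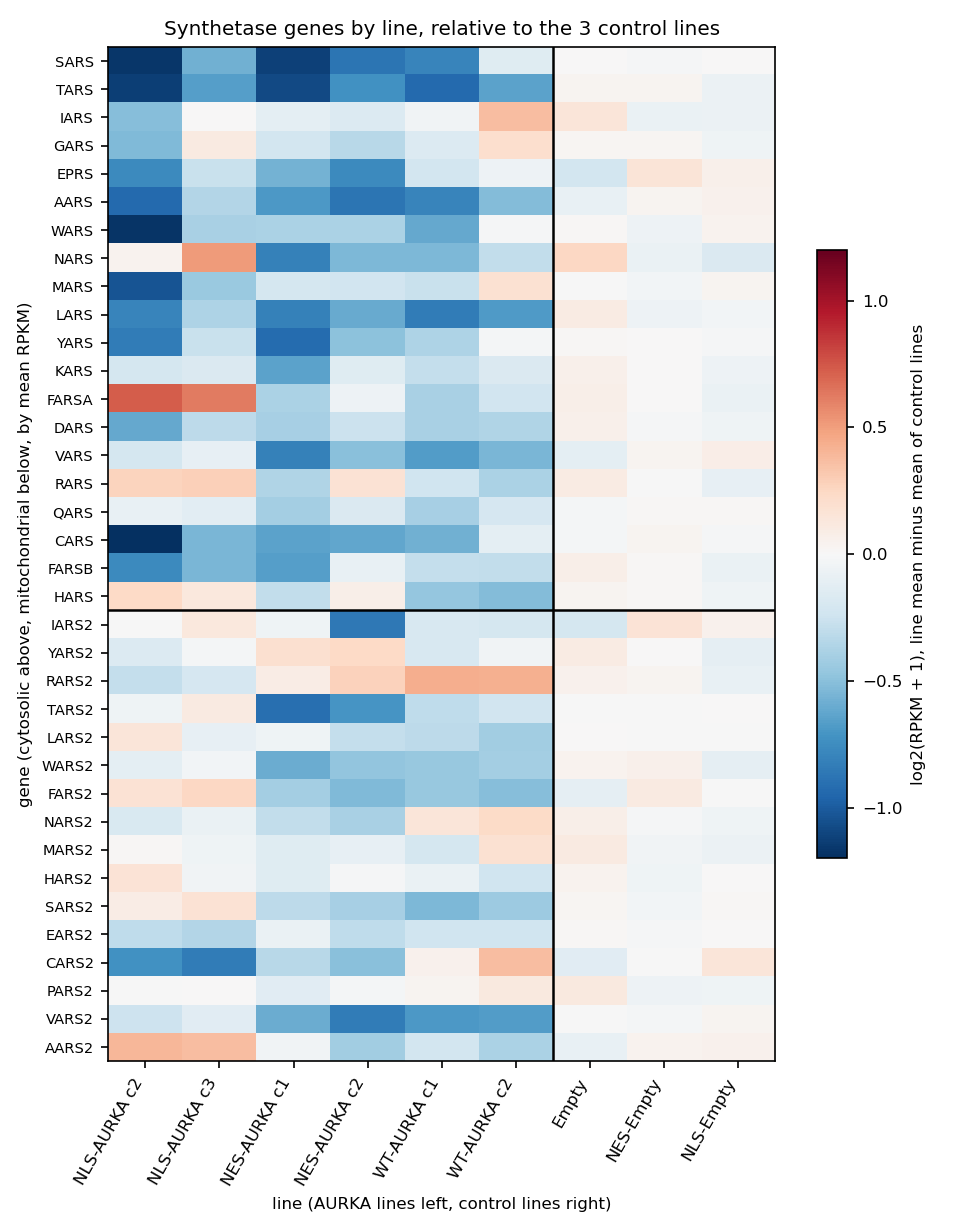
Log2(RPKM + 1) of each of the 36 synthetase genes in each of the 9 lines, as the line mean minus the mean of the 3 control lines, with cytosolic genes above the line across and mitochondrial genes below it, each ordered by mean RPKM, and AURKA lines left of the line down. Blue is lower and red higher than the control lines: TARS, LARS and AARS are blue in all 6 AURKA lines, and FARSA is red in both NLS-AURKA clones and blue or near white in the other 4.

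AURKA lines against control lines asked what set the clones with AURKA cDNA apart from the vector lines. Of the 20 cytosolic synthetases 6 were lower and 0 higher in AURKA lines, and of the 16 mitochondrial ones 1 was lower and 0 higher. Calls are limma tests on log2(RPKM + 1) with 1 value per line, at a Benjamini-Hochberg adjusted p under 0.05 over all 12589 genes tested. Over all those genes 10.4% were called lower and 8.85% higher. At an unadjusted p under 0.05 the counts were 13 lower and 0 higher cytosolic and 3 lower and 0 higher mitochondrial genes. Shares of all genes called are at the adjusted threshold, here and below, so they are no background for counts at an unadjusted p. The log2 difference was negative for 19 of 20 cytosolic genes, with a median of -0.41, and for 14 of 16 mitochondrial genes, with a median of -0.18, beside a median of -0.02 over all genes tested. Within libraries A to H, all 5 AURKA libraries lay below all 3 control libraries for 10 of 20 cytosolic and 3 of 16 mitochondrial genes, against 13.6% of all genes tested. Within libraries I to Z, all 12 lay below all 6 for 8 of 20 cytosolic genes and 1 of 16 mitochondrial genes, against 7.67%. In bulk RNA a lower level in every cell and a mixture of cells with unlike levels cannot be told apart.

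TARS, the threonine enzyme, had 48.4, 95.7 and 135.7 RPKM as its lowest, median and highest value in AURKA libraries, against 111.1, 183.5 and 199.1 RPKM in control libraries. The only overlap between the groups was across letter sets: within libraries A to H the AURKA values ended at 74.3 RPKM and the control values began at 111.1 RPKM, and within I to Z they ended at 135.7 and began at 177 RPKM. By line TARS averaged 92.0 ± 13.7 RPKM in AURKA lines (SD, n = 6) and 165.4 ± 7.18 RPKM in control lines (SD, n = 3), a log2 difference of -0.86 (SE 0.13, adjusted p = 0.00244). LARS, the leucine enzyme, which also serves as a leucine sensor for mTORC1, had 23.4, 36.9 and 49.2 RPKM in AURKA libraries, against 50.04, 58.7 and 67.8 RPKM in control libraries. Every AURKA library lay below every control library. Its line averages were 36.6 ± 4.80 RPKM in AURKA lines (SD, n = 6) and 58.3 ± 3.50 RPKM in control lines (SD, n = 3), a log2 difference of -0.68 (SE 0.12, adjusted p = 0.00403).

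AARS, the alanine enzyme whose response element match is shown above, had 22.9, 53.7 and 66.7 RPKM as its lowest, median and highest value in AURKA libraries, against 63.8, 79.9 and 86.9 RPKM in control libraries. The groups overlapped in 1 pair of libraries, Z of NLS-AURKA c3 at 66.7 RPKM and E of Empty at 63.8 RPKM, which are of different letter sets. Its line averages were 50.1 ± 6.78 RPKM in AURKA lines (SD, n = 6) and 79.0 ± 4.06 RPKM in control lines (SD, n = 3), and the log2 difference was -0.69 (SE 0.14, adjusted p = 0.00706). SARS, the serine enzyme and the most abundant of the 36, had 30.6, 115.8 and 144.8 RPKM in AURKA libraries, against 98.4, 188.2 and 197.8 RPKM in control libraries. Its groups overlapped across the letter sets but not within them. SARS averaged 100.4 ± 24.1 RPKM in AURKA lines (SD, n = 6) and 160.2 ± 2.06 RPKM in control lines (SD, n = 3), a log2 difference of -0.78 (SE 0.20, adjusted p = 0.0245).

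CARS, which charges cysteine, and DARS, which charges aspartate, were called nearer the threshold. CARS had 6.48, 21.9 and 30.0 RPKM as its lowest, median and highest value in AURKA libraries, against 17.8, 33.2 and 34.9 RPKM in control libraries. DARS had 21.5, 33.2 and 45.1 RPKM in AURKA libraries, against 28.2, 48.0 and 52.6 RPKM in control libraries. All AURKA libraries lay below all control libraries of the same letter set for both genes. CARS averaged 19.4 ± 4.46 RPKM in AURKA lines (SD, n = 6) and 28.7 ± 0.489 RPKM in control lines (SD, n = 3), with a log2 difference of -0.64 (SE 0.20, adjusted p = 0.0491). DARS averaged 32.3 ± 3.10 RPKM in AURKA lines (SD, n = 6) and 43.0 ± 1.80 RPKM in control lines (SD, n = 3), with a log2 difference of -0.39 (SE 0.10, adjusted p = 0.0196). VARS2, the mitochondrial valine enzyme, was the 1 mitochondrial gene called, at 2.17 ± 0.622 RPKM in AURKA lines (SD, n = 6) and 3.53 ± 0.0810 RPKM in control lines (SD, n = 3). Its log2 difference was -0.53 (SE 0.15, adjusted p = 0.0352), and at this level the log2(RPKM + 1) scale understates the change. By library VARS2 had 1.13, 2.18 and 3.49 RPKM as its lowest, median and highest value in AURKA libraries, against 2.40, 3.92 and 4.14 RPKM in control libraries, and the groups overlapped within libraries A to H but not within I to Z.

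**Figure D2:**
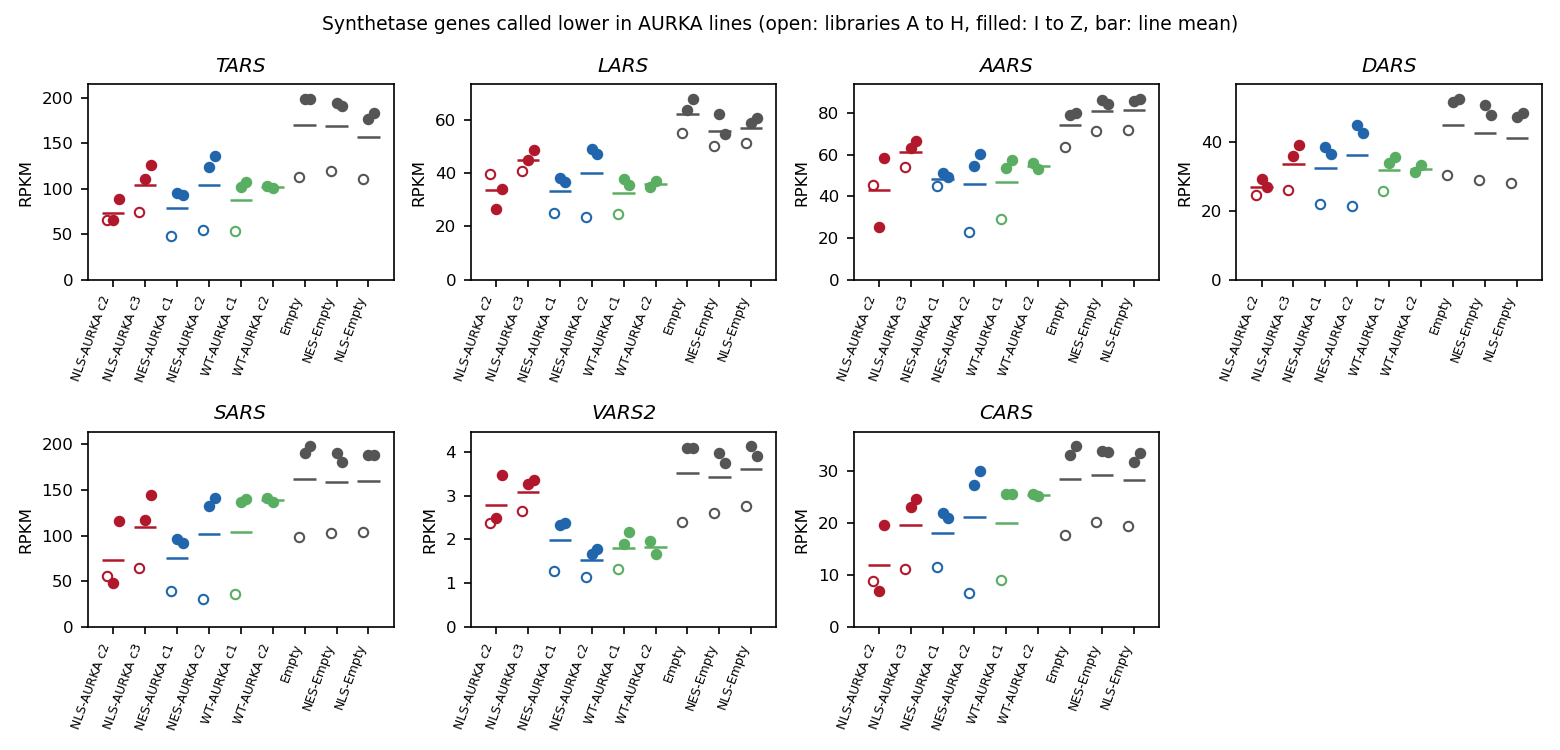
RPKM of the 7 synthetase genes called lower in AURKA lines, by line, with 1 point per library (open, libraries A to H; filled, libraries I to Z) and a bar at the line mean, AURKA lines left of control lines. For LARS all 17 AURKA libraries, up to 49.2 RPKM, sit below all 9 control libraries, which start at 50.04 RPKM; for SARS the open points of the control lines, near 98.4 to 103.5 RPKM, sit among the filled points of the AURKA lines.

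Other cytosolic genes did not pass. FARSA, the catalytic subunit of the phenylalanine enzyme, was the 1 cytosolic gene with a positive difference, 0.05 (SE 0.26, adjusted p = 0.917), and RARS (arginine) the one nearest to 0, at -0.04 (SE 0.18, adjusted p = 0.891). GARS and KARS, whose single genes supply glycine and lysine enzymes to the cytosol and the mitochondrion alike, had log2 differences of -0.16 (SE 0.16, adjusted p = 0.515) and -0.27 (SE 0.12, adjusted p = 0.139). WARS, the tryptophan enzyme and an interferon-gamma target, had 50.8 ± 12.0 RPKM in AURKA lines (SD, n = 6) and 65.3 ± 2.46 RPKM in control lines (SD, n = 3), a log2 difference of -0.49 (SE 0.21, adjusted p = 0.124). Of 7 other interferon-gamma genes tested, limma called 0, with 1 higher at an unadjusted p under 0.05, and their median log2 difference was 0.03. The 8 synthetases that are held in the multi-synthetase complex had 2 called lower (LARS and DARS), 0 higher and a median of -0.30. By the textbook division of synthetases into 2 folds, class I had 2 of 10 lower with a median of -0.46 and class II had 4 of 10 lower with a median of -0.33. Over all genes 10.4% were called lower and 8.85% higher, and 1 gene is a large share of lists this short.

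Among mitochondrial genes PARS2 was the one nearest to 0, at 0.00 to 2 decimals (-0.002, SE 0.08, adjusted p = 0.991), and RARS2 and YARS2 were the 2 with a positive difference, 0.12 (SE 0.17, adjusted p = 0.651) and 0.004 (SE 0.12, adjusted p = 0.985). In 12 of the 15 pairs by amino acid the cytosolic and the mitochondrial gene had differences of the same sign. Since 19 of 20 cytosolic and 14 of 16 mitochondrial differences were negative, most pairs would share a sign however they were matched. The cytosolic difference was -0.69 for AARS where that of AARS2 was -0.05, -0.86 for TARS where that of TARS2 was -0.35, and -0.78 for SARS where that of SARS2 was -0.24. For valine the order was the other way, with -0.47 for VARS (adjusted p = 0.0574) and -0.53 for VARS2. Whether the cytosolic and the mitochondrial gene of an amino acid differ in their change was not tested.

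Levels also differed between the letter sets. Within a line, the A to H library was lower than the mean of the I to Z libraries by a median log2 difference of -1.001 to -0.292 over the cytosolic genes and -0.46 to -0.09 over the mitochondrial genes, beside -0.18 to -0.02 over all genes tested. Cytosolic genes were called lower in AURKA lines within either set. In libraries I to Z alone 8 cytosolic genes were lower and 0 higher and 2 mitochondrial genes lower and 0 higher, against 9.92% lower over all genes, and the medians were -0.39 and -0.20. CARS was not among those 8 (adjusted p = 0.108). In libraries A to H alone 6 cytosolic and 0 mitochondrial genes were lower, against 6.06% over all genes, and the medians were -0.40 and -0.14. The 6 were CARS, LARS, SARS, TARS, MARS and YARS, while AARS (-0.86, adjusted p = 0.0669), DARS (-0.27, adjusted p = 0.181) and VARS2 (-0.42, adjusted p = 0.200) did not pass. Without libraries A, D and W, 3 cytosolic genes (AARS, LARS and TARS) and VARS2 were lower, against 8.28% over all genes, and the cytosolic median was -0.27 and the mitochondrial -0.18. There the log2 differences of the 3 cytosolic genes were -0.52 for AARS (adjusted p = 0.00892), -0.57 for LARS (adjusted p = 0.0171) and -0.73 for TARS (adjusted p = 0.0176), and SARS, DARS and CARS did not pass (adjusted p = 0.153, 0.154 and 0.227). AARS, LARS and TARS kept their call when any 1 line or library was left out of the whole set, with adjusted p up to 0.0449, 0.0294 and 0.0198. SARS lost it without any 1 control line or without library A, B or D, and DARS without any 1 control line or library A or B. VARS2 lost it without any 1 control line, WT-AURKA c1, WT-AURKA c2, NES-AURKA c1 or library B or H, and CARS in 20 of 35 such cases.

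ATF4 target genes were at their lowest in libraries A, D and W. Each value here is a median deviation from the median of the letter set, the library itself included. The cytosolic synthetases were at -0.76 to -0.25 in libraries A, D and W, against -0.51 to 0.33 in the other 23 libraries. The 26 ATF4 amino acid stress genes tested were at -1.54 to -0.63 in A, D and W, against -0.33 to 0.35 in the others, and the mitochondrial synthetases at -0.12 to -0.02, against -0.40 to 0.26. In NLS-AURKA c2, library W was below library X, of the same line and letter set, by 1.38 on the log2 scale for CARS and MARS and by 1.26 for SARS, while RARS and DARS were above it, by 0.15 and 0.11. WARS had 15.8 RPKM in library W, 17.5 in A and 18.3 in D, against 37.0 to 83.8 RPKM in the other 14 AURKA libraries and 53.3 to 74.8 RPKM in the 9 control libraries. Between AURKA and control lines as a whole, 1 of the 26 ATF4 genes was higher and 0 were lower by limma, against 8.85% higher and 10.4% lower over all genes. The 1 was ATF5, a transcription factor (0.65, SE 0.13, limma adjusted p = 0.00720). At an unadjusted p under 0.05, 2 of the ATF4 genes were higher and 8 lower, and their median was -0.23. In libraries A to H alone 7 were lower and 0 higher, with a median of -0.72, where 6.06% of all genes were called lower. In the fit with all libraries, a letter-set term and the line as a block, 2 were higher and 4 lower, against 12.6% higher and 15.0% lower over all genes. Without libraries A, D and W 2 were higher and 0 lower, with a median of -0.01. In that setting 8.28% of all genes were called lower, and the share called higher is not given. TRIB3, a pseudokinase induced by ATF4, and ASNS, which makes asparagine, had differences of -1.25 (SE 0.46, adjusted p = 0.0849) and -0.75 (SE 0.46, adjusted p = 0.275). The part of ATF4 target levels in the synthetase differences was not tested.

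**Figure D3:**
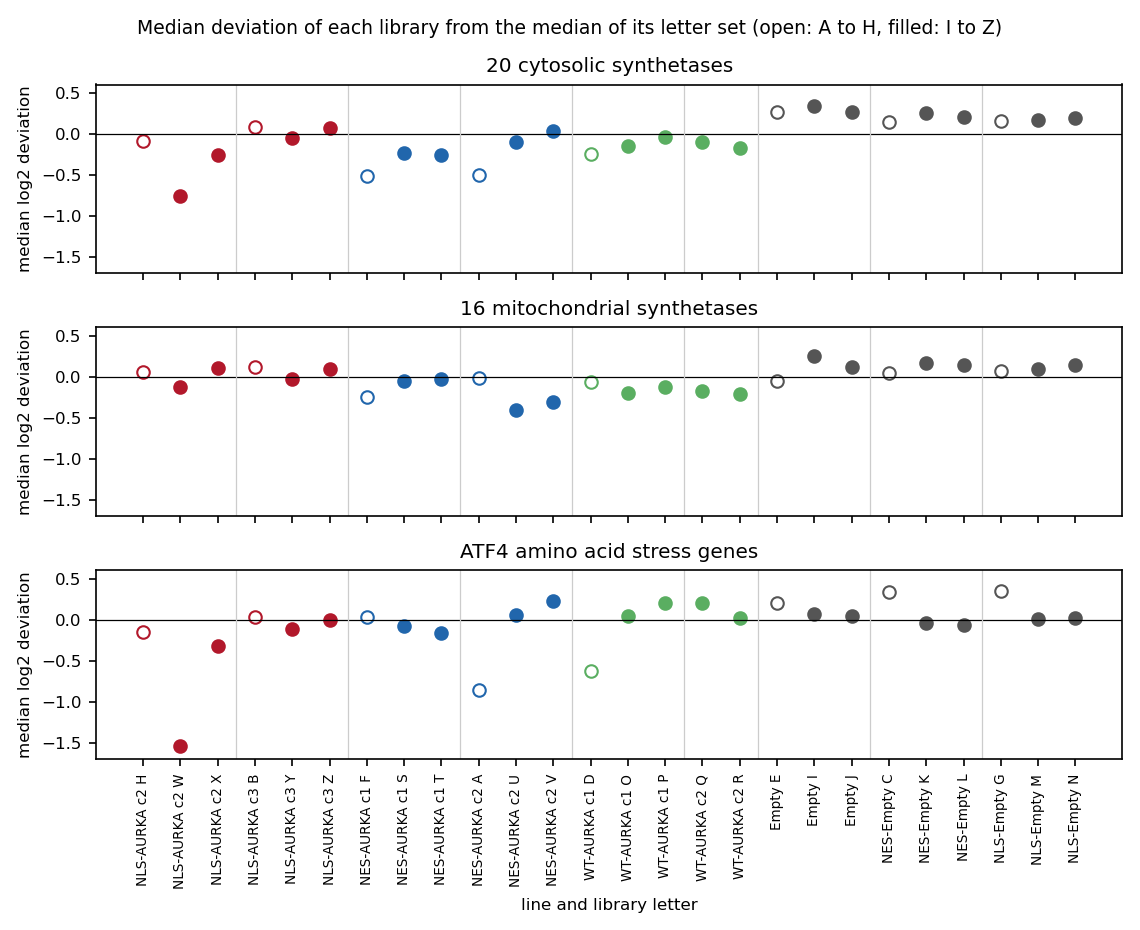
Median log2 deviation of the 20 cytosolic synthetases (top), the 16 mitochondrial synthetases (middle) and the ATF4 amino acid stress genes (bottom) from the median of the library's letter set, by library (open, A to H; filled, I to Z), AURKA lines left of control lines. All 9 control libraries lie above 0 for cytosolic synthetases, and W, A and D are the 3 lowest for ATF4 genes, at -1.54, -0.86 and -0.63.

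Each clone was also set against the control line with the same signal, in a fit to single libraries where a call needed an absolute log2 difference of at least 1 besides the adjusted p. All 6 clones had a negative cytosolic median, between -0.66 (NES-AURKA c1) and -0.26 (NLS-AURKA c3). WT-AURKA c2 has libraries I to Z alone while Empty includes library E, so letter set and clone mix in its median of -0.27, which was -0.53 in libraries I to Z alone. The mitochondrial medians were -0.37 in NES-AURKA c2, -0.27 in WT-AURKA c1, -0.24 in WT-AURKA c2, -0.16 in NES-AURKA c1, -0.03 in NLS-AURKA c2 and 0.04 in NLS-AURKA c3. TARS was the 1 cytosolic gene called, in NES-AURKA c1, against 1.95% of genes called lower there. It had 48.4, 95.7 and 92.9 RPKM in NES-AURKA c1 (libraries F, S and T), against 120.2, 194.9 and 191.3 RPKM in NES-Empty (C, K and L), a log2 difference of -1.12 (SE 0.37, limma adjusted p = 0.0488). No synthetase was called there with no filter on low values or without any 1 of libraries K, L, F, S and T.

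IARS2 was called in NES-AURKA c2, against 1.77% of genes called lower there. It had 19.0, 25.2 and 26.8 RPKM in NES-AURKA c2, against 43.3, 51.1 and 51.2 RPKM in NES-Empty, a log2 difference of -1.02 (SE 0.14, limma adjusted p = 8.57e-05). All 3 libraries lay below those of the other 8 lines, of which the lowest was at 35.8 RPKM, and the sister clone NES-AURKA c1 was at 37.7, 44.5 and 42.8 RPKM. The difference lay near the limit of 1, and 0 synthetases were called there in libraries I to Z alone, with median-ratio scaling, or without library A, K or L. In the other 4 clones limma called 0 of the 36. Over all genes the share called there in any direction was 3.53% in WT-AURKA c1, 3.19% in WT-AURKA c2, 5.75% in NLS-AURKA c2 and 5.13% in NLS-AURKA c3. In NLS-AURKA c2 the count was 5 lower with a letter-set term and 7 lower in libraries I to Z alone. The I to Z libraries of that clone are W and X, and W stood apart in ATF4 target genes. In NLS-AURKA c3 the count was 1 lower in libraries I to Z alone. No share over all genes is given for the clones in these settings. At an unadjusted p under 0.05, NLS-AURKA c2 had 1 higher and 8 lower cytosolic and 2 lower mitochondrial genes, and NLS-AURKA c3 had 2 higher cytosolic and 2 lower mitochondrial genes. WT-AURKA c1 had 4 lower cytosolic and 3 lower mitochondrial genes, and WT-AURKA c2 had 1 and 2. No share over all genes at that unadjusted threshold is given for the clones. Whether the difference from the matched control line varied between constructs was tested for the 36 genes in 3 pairs of constructs, and 0 of 108 tests were called by limma, with a lowest adjusted p of 0.0523 and 18 at an unadjusted p under 0.05. Each control in these tests is 1 line, and few genes of any kind passed. Over all genes 1.38% were called for NLS-AURKA and NES-AURKA, 2.24% for NLS-AURKA and WT-AURKA, and 0.00% for NES-AURKA and WT-AURKA. The 18 synthetase tests at an unadjusted p under 0.05 were 6, 9 and 3 of 36 in these pairs, in that order. Over all genes the shares at that threshold were 17.5%, 19.8% and 5.36%.

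The nuclear and the export signal were compared between NLS-AURKA and NES-AURKA lines. Of 16 mitochondrial genes 6 were higher and 2 lower in NLS-AURKA, and of 20 cytosolic genes 3 were higher and 0 lower, by limma with 2 lines a construct (5 higher and 1 lower cytosolic at an unadjusted p under 0.05). Over all genes 19.1% were called higher and 14.1% lower. The medians were 0.20 for mitochondrial and 0.13 for cytosolic genes, beside 0.05 for all genes. AURKA RNA itself was higher in NLS-AURKA, at 59.2 ± 10.4 RPKM (SD, n = 2), than in NES-AURKA, at 28.2 ± 5.17 RPKM (SD, n = 2), and its part was not tested.

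FARSA, the catalytic subunit of the phenylalanine enzyme, had 37.6, 56.0 and 82.9 RPKM as its lowest, median and highest of 6 libraries in NLS-AURKA, against 16.5, 31.5 and 33.0 RPKM in NES-AURKA. The libraries did not overlap, and the log2 difference was 0.90 (SE 0.12, limma adjusted p = 0.000911). FARSB, which encodes the other subunit of that enzyme, was not called, at 9.56, 15.5 and 19.3 RPKM in NLS-AURKA, against 8.12, 18.7 and 23.9 RPKM in NES-AURKA, a log2 difference of -0.28 (SE 0.17, adjusted p = 0.233). NARS, the asparagine enzyme, had 45.4, 57.8 and 86.1 RPKM in NLS-AURKA, against 21.8, 31.8 and 46.2 RPKM in NES-AURKA. Its libraries overlapped in 1 pair, and the log2 difference was 0.95 (SE 0.19, adjusted p = 0.00550). VARS (valine) averaged 38.6 ± 1.24 RPKM in NLS-AURKA and 27.2 ± 3.58 RPKM in NES-AURKA (SD, n = 2 each), a difference of 0.50 (SE 0.12, adjusted p = 0.0139).

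TARS2, the mitochondrial threonine enzyme, had 6.77, 8.002 and 9.18 RPKM in NLS-AURKA, against 3.21, 3.90 and 4.94 RPKM in NES-AURKA. All 6 NLS-AURKA libraries lay above all 6 NES-AURKA libraries, and the log2 difference was 0.83 (SE 0.10, adjusted p = 0.000434), while that of its cytosolic counterpart TARS was 0.01. FARS2, the single-chain mitochondrial phenylalanine enzyme, averaged 7.14 ± 0.206 RPKM in NLS-AURKA and 3.95 ± 0.295 RPKM in NES-AURKA (SD, n = 2 each), a difference of 0.68 (SE 0.10, adjusted p = 0.00106). AARS2 averaged 3.44 ± 0.0759 RPKM in NLS-AURKA and 1.95 ± 0.512 RPKM in NES-AURKA (SD, n = 2 each), a difference of 0.62 (SE 0.13, adjusted p = 0.00654). VARS2, SARS2 (serine) and WARS2 (tryptophan) were also higher, by 0.52, 0.49 and 0.46. RARS2 and YARS2 were lower, with differences of -0.43 (SE 0.10, adjusted p = 0.00890) and -0.31 (SE 0.10, adjusted p = 0.0455).

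In libraries I to Z alone 5 cytosolic genes were higher and 2 lower, and 6 mitochondrial genes were higher and 1 lower, against 19.6% and 17.9% over all genes. The cytosolic median there was -0.14, with MARS (methionine) and WARS called lower, and in libraries A to H alone it was 0.46, with 5 cytosolic and 4 mitochondrial genes higher, against 5.98% over all genes. The mitochondrial median was 0.26 in either set. FARSA was called in I to Z (0.97, adjusted p = 0.000319) and so were NARS, VARS and the 6 mitochondrial genes that were higher overall. In A to H the NES-AURKA libraries are F and A, of which A stood apart in ATF4 target genes. The 5 cytosolic genes called there were NARS, GARS, LARS, SARS and YARS, and all but NARS were not called with all libraries. FARSA (0.76, adjusted p = 0.156), VARS (0.59, adjusted p = 0.177), AARS2 (0.42, adjusted p = 0.0984) and SARS2 (0.18, adjusted p = 0.405) did not pass in A to H. Leaving out any 1 line or library ended none of the calls of FARSA, NARS, TARS2, FARS2, AARS2, VARS2 and WARS2. SARS2 lost its call without library X, RARS2 without NLS-AURKA c2, VARS without NLS-AURKA c3, library A or library X, and YARS2 in 9 of 16 cases. Without libraries A, D and W 3 cytosolic genes were higher and 1 lower, and 6 mitochondrial genes higher and 3 lower, against 19.6% and 16.7% over all genes.

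**Figure D4:**
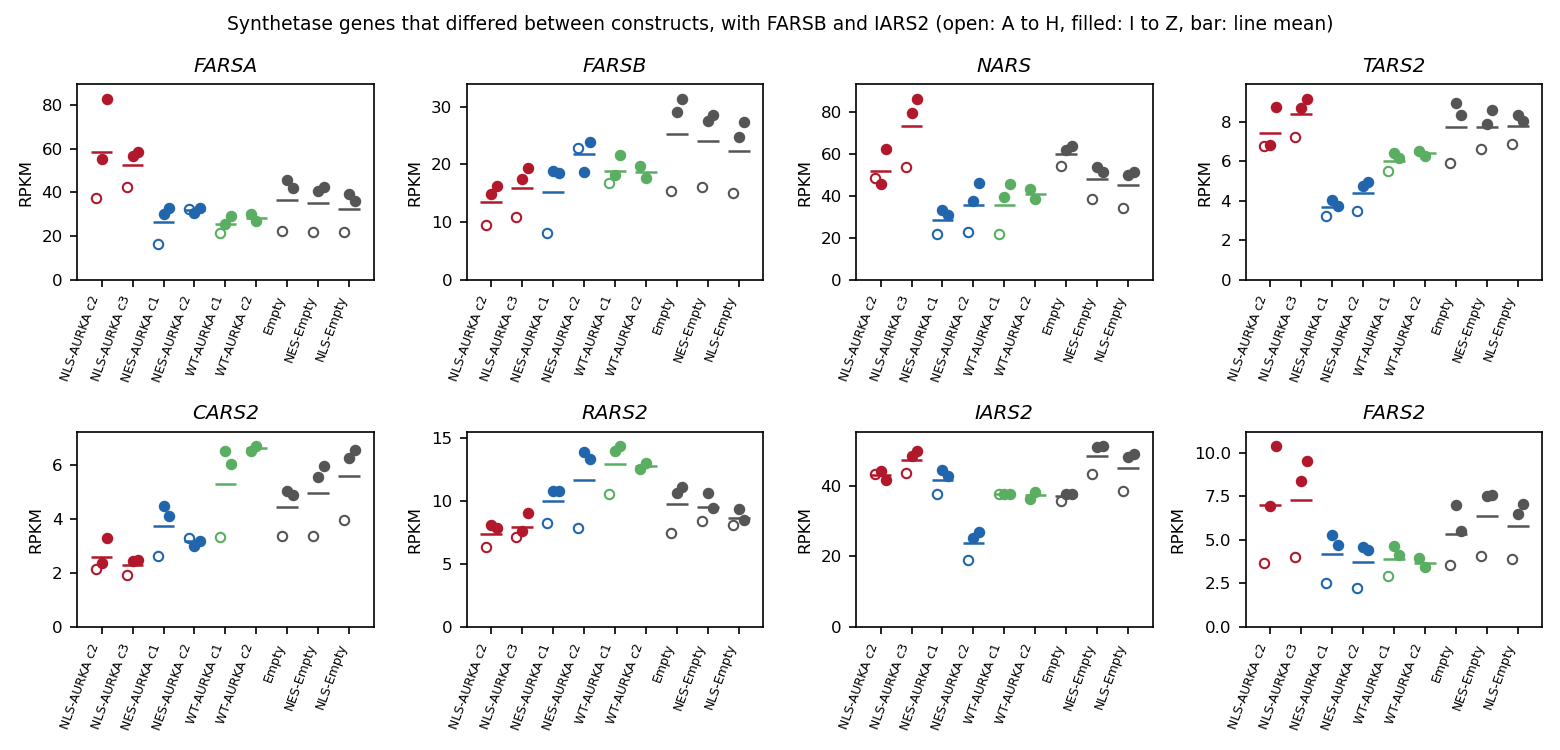
RPKM by line of 6 synthetase genes that differed between constructs, with FARSB and IARS2 beside them, 1 point per library (open, A to H; filled, I to Z) and a bar at the line mean, in the order NLS-AURKA, NES-AURKA, WT-AURKA and control lines. In NLS-AURKA, FARSA reaches 82.9 RPKM and FARSB, the other subunit of the same enzyme, no more than 19.3 RPKM; IARS2 is low in NES-AURKA c2 alone, at 19.0 to 26.8 RPKM.

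NLS-AURKA against WT-AURKA, which has no added signal, shares its NLS-AURKA libraries with the comparison above, so the results are not independent of each other. The WT-AURKA c2 line mean holds no A to H library, and the letter sets are balanced between these constructs' lines in libraries I to Z alone. Of 16 mitochondrial genes 7 were higher and 3 lower, and of 20 cytosolic genes 5 were higher and 1 lower, against 18.7% higher and 17.4% lower over all genes. The medians were 0.24 for mitochondrial and -0.10 for cytosolic genes, beside 0.01 for all genes. AURKA RNA averaged 59.2 ± 10.4 RPKM in NLS-AURKA and 25.3 ± 16.6 RPKM in WT-AURKA (SD, n = 2 each), or 13.5 RPKM in WT-AURKA without library D, and its part was not tested. FARSA had 37.6, 56.0 and 82.9 RPKM as its lowest, median and highest value in NLS-AURKA, against 21.5, 25.7, 29.1, 30.0 and 26.7 RPKM in the 5 WT-AURKA libraries (D, O, P, Q and R), and the groups did not overlap. Its log2 difference was 0.98 (SE 0.12, limma adjusted p = 0.000526), and that of FARSB was -0.37 (SE 0.17, adjusted p = 0.116). HARS, the histidine enzyme, averaged 11.4 ± 0.778 RPKM in NLS-AURKA and 6.63 ± 0.204 RPKM in WT-AURKA (SD, n = 2 each), a difference of 0.68 (SE 0.12, adjusted p = 0.00256). VARS, RARS and NARS were higher by 0.45, 0.59 and 0.69, and MARS was lower, with a difference of -0.70 (SE 0.19, adjusted p = 0.0206).

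CARS2, the mitochondrial cysteine enzyme, showed the largest mitochondrial difference in the other direction. It had 1.94, 2.42 and 3.29 RPKM as its lowest, median and highest value in NLS-AURKA, against 3.33, 6.52, 6.05, 6.55 and 6.71 RPKM in the 5 WT-AURKA libraries (D, O, P, Q and R). The groups did not overlap, although library D of WT-AURKA c1 lay just above the highest NLS-AURKA library. The log2 difference was -0.997 (SE 0.13, adjusted p = 0.000662). RARS2 averaged 7.67 ± 0.368 RPKM in NLS-AURKA and 12.9 ± 0.123 RPKM in WT-AURKA (SD, n = 2 each), a difference of -0.68 (SE 0.10, adjusted p = 0.000875), while its cytosolic counterpart RARS was higher. NARS2 (asparagine) was lower, by a difference of -0.32, while NARS was higher.

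FARS2 averaged 7.14 ± 0.206 RPKM in NLS-AURKA and 3.79 ± 0.156 RPKM in WT-AURKA (SD, n = 2 each), a difference of 0.69 (SE 0.10, adjusted p = 0.000837). AARS2 and SARS2 differed by 0.69 (SE 0.13, adjusted p = 0.00342) and 0.62 (SE 0.09, adjusted p = 0.000749). VARS2, LARS2 (leucine), WARS2 and TARS2 were higher by 0.49, 0.39, 0.35 and 0.30, though LARS2 was at -0.055 in libraries A to H alone. In libraries I to Z alone 5 cytosolic genes were higher and 1 lower and 6 mitochondrial genes higher and 2 lower, against 20.4% and 18.1% over all genes. In libraries A to H alone, where D is the 1 WT-AURKA library, 0 of 36 were called by limma, against 1.51% higher and 1.56% lower over all genes, and the cytosolic median was 0.35. At an unadjusted p under 0.05, 6 cytosolic genes were higher and 0 lower there, and 2 mitochondrial genes higher and 2 lower, beside 1491 higher and 1410 lower of all 12589. AARS2, CARS2, FARS2, FARSA, HARS, RARS2, SARS2 and VARS2 kept their call when any 1 line or library was left out. The other 8 genes lost theirs without WT-AURKA c2. NARS also lost it without WT-AURKA c1 or NLS-AURKA c3, RARS without either NLS-AURKA clone, and VARS and WARS2 without any 1 of the 4 lines, VARS also without library X. MARS lost it without NLS-AURKA c2 or library B, O or P, NARS2 without NLS-AURKA c2 or library B, H, O or Q, LARS2 without WT-AURKA c1, NLS-AURKA c2 or library O or Z, and TARS2 in 9 of 15 cases. Without libraries A, D and W 4 cytosolic genes were higher and 3 lower, and 5 mitochondrial genes higher and 3 lower, against 20.8% and 21.0% over all genes.

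**Figure D5:**
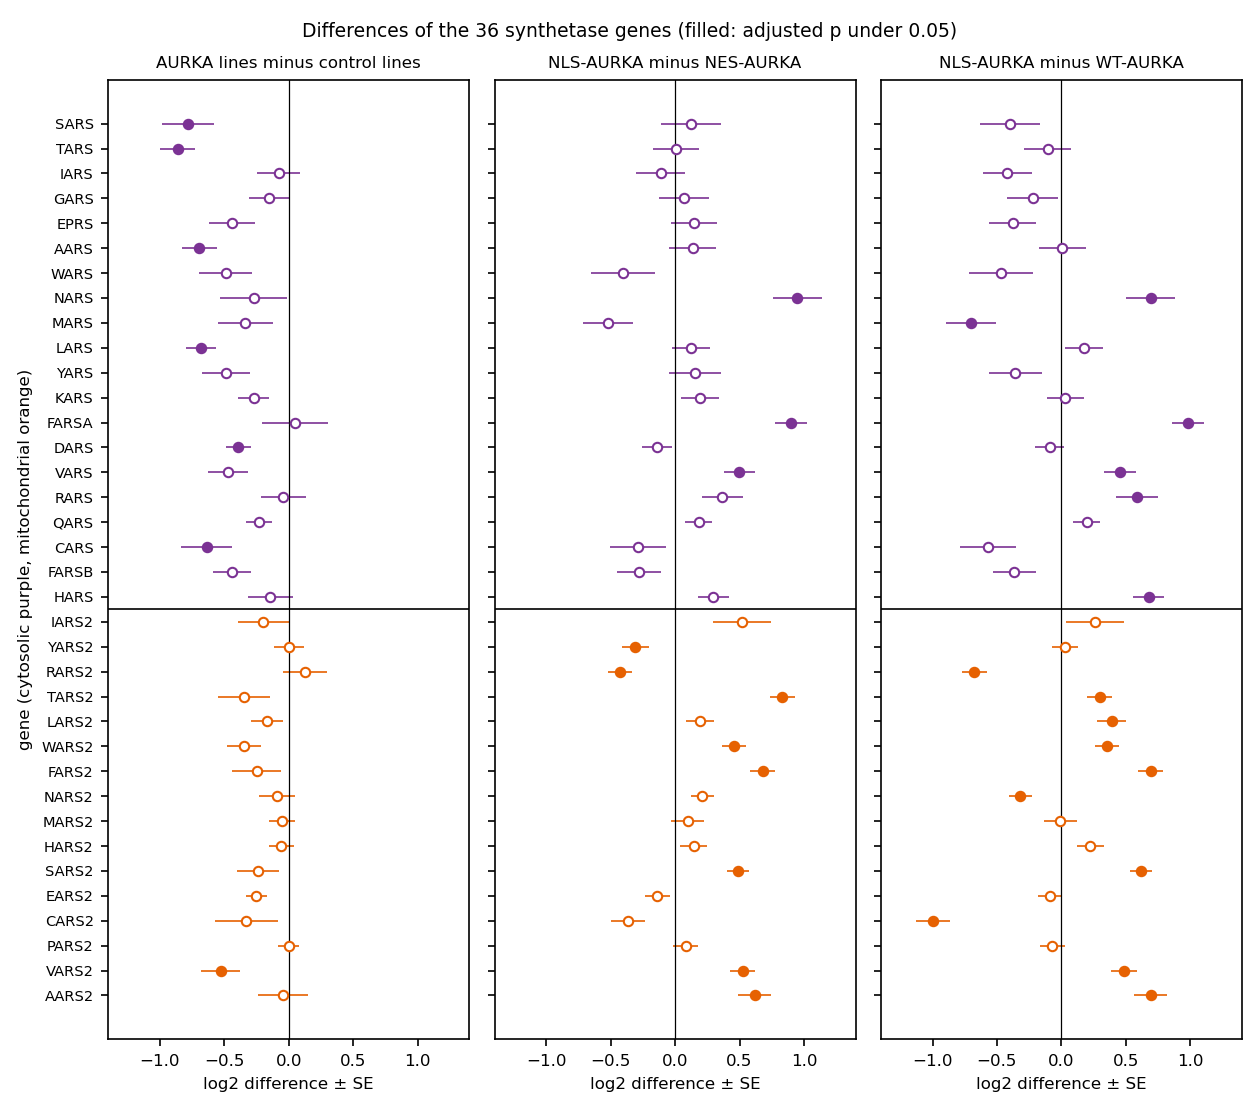
Log2 differences of the 36 synthetase genes, with bars of 1 SE, in AURKA lines minus control lines (left), NLS-AURKA minus NES-AURKA (middle) and NLS-AURKA minus WT-AURKA (right), cytosolic genes in purple above and mitochondrial genes in orange below, filled where the adjusted p was under 0.05. Cytosolic points lie mostly left of 0 in the left panel, with a median of -0.41, and filled mitochondrial points lie on both sides of 0 in the other panels.

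NES-AURKA against WT-AURKA gave 0 called cytosolic genes by limma, with 1 higher and 3 lower at an unadjusted p under 0.05, and 3 lower and 0 higher mitochondrial genes, against 1.56% higher and 3.30% lower over all genes. The medians were -0.12 for cytosolic and -0.07 for mitochondrial genes. TARS2 averaged 4.02 ± 0.505 RPKM in NES-AURKA and 6.23 ± 0.258 RPKM in WT-AURKA (SD, n = 2 each), a log2 difference of -0.54 (SE 0.10, adjusted p = 0.0220). NARS2 and CARS2 differed by -0.53 (SE 0.09, adjusted p = 0.0181) and -0.63 (SE 0.13, adjusted p = 0.0339). All 3 calls were lost without WT-AURKA c2, that of TARS2 also without library A, that of NARS2 without library F or O, and that of CARS2 without library F, O or P. Without libraries A, D and W together all 3 calls held. The differences were then -0.497 for TARS2 (adjusted p = 0.0356), -0.585 for NARS2 (adjusted p = 0.0115) and -0.766 for CARS2 (adjusted p = 0.0101). The share over all genes is not given for that setting. In libraries A to H alone, where D is the 1 WT-AURKA library, TARS2, NARS2 and CARS2 differed by -0.591, -0.503 and -0.133. In libraries I to Z alone TARS2 (-0.46, adjusted p = 0.0521) and NARS2 (-0.47, adjusted p = 0.0674) did not pass while CARS2 did (-0.67, adjusted p = 0.0403). There the cytosolic median was 0.065, with 11 of 20 genes positive, and HARS was called higher (0.52, adjusted p = 0.0261), against 2.03% higher and 2.51% lower over all genes. In the fit with all libraries, a letter-set term and the line as a block, EPRS, the glutamate and proline enzyme, was lower (-0.47, adjusted p = 0.0244), and HARS (0.44, adjusted p = 0.0295) and YARS2 (0.47, adjusted p = 0.0108) were higher, against 3.75% higher and 6.39% lower over all genes. The 3 mitochondrial calls held in that fit.

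Genes that work beside the synthetases were read from lists. Of 12 scaffold and tRNA-delivery genes, AARSD1, which edits mischarged alanine tRNA, and DTD2, a deacylase that clears wrongly charged tRNA, were lower in AURKA than in control lines, by differences of -0.43 and -0.37, and 0 were higher, against 10.4% lower and 8.85% higher over all genes. In NLS-AURKA against NES-AURKA 2 of the 12 were higher and 3 lower, against 19.1% and 14.1% over all genes. EEF1E1, a scaffold of the multi-synthetase complex, was higher by 0.65 (SE 0.12, limma adjusted p = 0.00421), and AIMP1, another scaffold of it, was lower, at -0.34 (SE 0.11, adjusted p = 0.0343). XPOT, which exports tRNA out of the nucleus, was lower, at -0.70 (SE 0.17, adjusted p = 0.0130), and so was DTD1, at -0.74 (SE 0.15, adjusted p = 0.00635). Of 13 mitochondrial translation factors tested, GFM1, an elongation factor, was lower (-0.41) and MRRF, the ribosome recycling factor, higher (0.26) in AURKA lines. Over all genes 10.4% were lower and 8.85% higher there.

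In NLS-AURKA against NES-AURKA 2 of the 13 mitochondrial translation factors were higher (GATC and MTIF2) and 2 lower (QRSL1 and TSFM), against the same 19.1% and 14.1%. GATC and QRSL1 encode subunits of the same enzyme, which makes mitochondrial glutaminyl-tRNA and stands in for a glutaminyl-tRNA synthetase there. Their differences were 0.44 (SE 0.09, limma adjusted p = 0.00553) and -0.70 (SE 0.10, adjusted p = 0.00123). ATF4 genes had 5 of 26 lower and 0 higher in that comparison, where 14.1% of all genes were lower, with NUPR1, TRIB3, DDIT3 and CEBPB at -1.47, -1.28, -0.88 and -0.65. Against WT-AURKA they had 8 of 26 lower and 0 higher, where 17.4% of all genes were lower, with NUPR1 at -2.10, TRIB3 at -1.58, ASNS at -1.48 and VLDLR at -0.71. With all libraries, a letter-set term and the line as a block, 3 were lower there, against 19.7% of all genes. In libraries A to H alone, which hold A and D, 2 ATF4 genes were higher and 0 lower against NES-AURKA, where 5.98% of all genes were higher. Library D is the only WT-AURKA library of that set, so no count of ATF4 genes against WT-AURKA is given for it. Without libraries A, D and W the counts were 9 lower against NES-AURKA and 16 lower against WT-AURKA. None was higher in either, against 16.7% and 21.0% lower over all genes. Of 12 MYC targets of ribosome biogenesis 2 were lower in AURKA than in control lines, NOP56 (-0.53) and RRP12 (-0.87), and 0 higher, against 10.4% lower over all genes. In NLS-AURKA against WT-AURKA 6 of those 12 were higher and 0 lower, where 18.7% of all genes were higher, with NPM1 at 0.85, POLR1A at 0.78, MYC itself at 0.67 and NCL at 0.64.

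Some synthetase genes share sequence with a neighbour, and since the strand setting of the counting is not given in the sources used here, their values are uncertain. HARS and HARS2 start 84 bases apart on opposite strands of chromosome 5 (RefSeq, GRCh38.p14) and share 402 bases of exon in the GENCODE annotation, from which the other overlaps also come. HARS2 was not called in NLS-AURKA against WT-AURKA, where HARS was, with a log2 difference of 0.22 (SE 0.11, adjusted p = 0.127), and between AURKA and control lines HARS was at -0.14 and HARS2 at -0.06, neither called. MARS shares 62 exon bases with DDIT3, an ATF4 target that was itself lower in NLS-AURKA. Overlaps on the opposite strand were also annotated for SARS2 with MRPS12 (349 bases), EARS2 with UBFD1 (370 bases), WARS with WDR25 (272 bases), YARS with S100PBP (248 bases) and AARS2 with TMEM151B (235 bases).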

How the data were processed

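RNA of 9 MDA-MB-231Luc lines was sequenced as 26 mRNA libraries, made per the labels with a KAPA mRNA kit from 500 ng of total RNA. The authors deposited 1 table of RPKM values (reads scaled by transcript length and library size). The submitters' processing notes name HISAT2, SAMtools, Partek and the hg19 build; the sources used here do not give the annotation, the strand setting or the handling of reads with several matches. The table holds no counts, so depth was estimated from the step between low RPKM values.

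Genes with at least 1 RPKM in 2 libraries (12589) were tested on log2(RPKM + 1) with limma 3.58.1 (R 4.3.3) with a mean-variance trend, and p-values were adjusted by Benjamini and Hochberg over all of them. Groups of lines were compared with 1 value per line, the mean over its libraries, and the 4 groups shared 1 estimate of spread in comparisons between constructs. Clones were set against their control line on single libraries. The labels do not tell whether the libraries within 1 line are separate cultures, and p-values for clones therefore measure a spread that may be technical. The fit of AURKA lines against control lines was tested on simulated data, with the spread taken from the control lines. No such test is given for the other fits. Other steps used Python 3.11.15 with pandas 2.3.3, numpy 2.4.6, scipy 1.17.1 and matplotlib 3.10.9.

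Full statistics were given for synthetases called between groups of lines (at most 10 per comparison, by adjusted p), for the highest, lowest, most and least changed of each class, and for GARS, KARS, HARS, HARS2 and WARS. Genes, lists and tests were chosen with earlier results of these data known. Medians over a list are descriptions with no test. Alternatives were other pseudocounts (0.1 and 5), filters, scalings, fits and subsets of libraries; the one without libraries A, D and W was chosen after seeing the data.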

Additional observations from a re-analysis of the deposited data

Results flagged for a closer look

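Of the 36 genes examined over the 6 AURKA lines, 2 had a line mean far from the others by Dixon's ratio, and both lay in NES-AURKA c1. KARS was at 28.03 RPKM there, below the 34.8 to 38.0 RPKM of the other AURKA lines and the 41.3 to 45.6 RPKM of the control lines. EARS2, the mitochondrial glutamate enzyme, was at 4.744 RPKM there, above the 3.69 to 4.08 RPKM of the other AURKA lines and below the 4.94 to 5.07 RPKM of the control lines. At this threshold chance gives such a value in about 1 of 20 groups.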

How the results depend on the processing

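Calls and medians of the report were recomputed under the alternatives. Of 4668 values of single genes under an alternative, 4406 kept their side of the threshold, 156 lost the call and 105 gained one. Among the 4406, genes called in neither setting may have changed sign. The 1 value that turned round with a call in either setting was LARS2 in NLS-AURKA minus WT-AURKA. It was at -0.055 in libraries A to H alone. In AURKA minus control lines 7 synthetases were called, 4 with no filter on low values, 15 with all libraries, a letter-set term and the line as a block, 4 without libraries A, D and W, and 3 to 10 when 1 line or library was left out; the cytosolic median then ran between -0.478 and -0.349 and the mitochondrial between -0.235 and -0.108, and with a pseudocount of 5 the mitochondrial median was -0.118. In NLS-AURKA minus NES-AURKA 9 to 16 were called on leaving 1 out, against 11; the cytosolic median of 0.131 became -0.137 in libraries I to Z and 0.458 in A to H and ran between -0.143 and 0.288 on leaving 1 out, and the mitochondrial 0.203 became 0.122 with a pseudocount of 5 and ran between 0.111 and 0.287. In NLS-AURKA minus WT-AURKA 16 were called, 10 with no filter, 0 in libraries A to H and 8 to 21 on leaving 1 out; the cytosolic median of -0.10 became 0.347 in A to H and ran between -0.314 and 0.077, and the mitochondrial 0.241 became 0.166 with a pseudocount of 5 and ran between 0.192 and 0.264. In NES-AURKA minus WT-AURKA 3 were called, 0 in A to H, 6 with all libraries, a letter-set term and the line as a block and 0 to 7 on leaving 1 out; the cytosolic median ran between -0.276 and 0.065, and the mitochondrial -0.073 became -0.006 in I to Z and 0.005 in that fit with a letter-set term and the line as a block and ran between -0.139 and 0.043.

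For single clones against their control line, the counts were as follows, with no share over all genes for those under an alternative. NES-AURKA c1 had 1 call, 2 with a pseudocount of 0.1 or a letter-set term, 0 with no filter, 5 with no fold limit or one of 0.5, and 0 to 2 on leaving 1 library out. NES-AURKA c2 had 1 call, 2 with a pseudocount of 0.1, 0 with median-ratio scaling or in I to Z, 4 with no fold limit or one of 0.5, and 0 to 3 on leaving 1 out. NLS-AURKA c2 had 0 calls, 2 with a pseudocount of 0.1 or median-ratio scaling, 5 with a letter-set term, 7 in I to Z, 4 with no fold limit or one of 0.5, and 0 to 2 on leaving 1 out. NLS-AURKA c3 had 0 calls, 1 with a pseudocount of 0.1, in I to Z, or with no fold limit or one of 0.5, and 0 to 1 on leaving 1 out. WT-AURKA c1 had 0 calls, 2 with no fold limit or one of 0.5, and 0 to 1 on leaving 1 out, and WT-AURKA c2 had 0 in every case run. The cause of these changes was not tested. No paired analysis was possible because no single library letter occurs in more than 1 group; the letter set, which crosses the groups, entered as the term in the fits named above. Depth is an estimate, so no counting intervals are given, and genes near 1 RPKM are understated on the log2(RPKM + 1) scale.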
